A study of Homo sapiens with 9 samples.

Results

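The genes described here are 44 listed components of the PI3K, AKT and mTOR pathway, taken by name, of which 41 were measured with a probe set of their own. Each gene was represented by the probe set that carries its symbol alone and has the highest mean over the 9 arrays, and all 41 measured genes reached the level needed for testing, among 14172 genes tested and 19775 genes measured. PIK3CA, PIK3R2 and SGK3 were not analysed here. RNA levels came from Affymetrix HG-U133 Plus 2 arrays as log2 values summarised by the authors with RMA, so a difference of 1 is a doubling.

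The cells were TC-71, a cell line from Ewing sarcoma, a tumour of bone and soft tissue driven by an EWSR1 fusion, together with 3 lines derived from it. TC/AEW was selected over 6 months with rising doses of NVP-AEW541, which blocks the kinase of the IGF-1 receptor, up to 5 µM. TC/AVE was selected over 6 months with AVE1642, an antibody against the same receptor, up to 10 µg/ml. TC/CP was selected over 6 months with the antibody figitumumab, whose highest dose the labels do not state. Parental TC-71, which is not resistant to these drugs per the labels, gave 3 samples with 1 array each. All cells grew in Iscove medium with 10% serum. Each resistant line gave 2 technical replicate arrays, which were averaged into 1 sample, so a line is a single sample and its spread between cultures is unknown. Whether a line is 1 clone or a mixed population, and whether drug was present at harvest, the labels do not state.

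PI3K enzymes are recruited by activated receptors, the IGF-1 and insulin receptors among them, and phosphorylate a membrane lipid that draws PDK1 and AKT to the membrane. AKT then restrains the TSC complex, which frees RHEB to activate mTOR complex 1, and this complex promotes protein synthesis through the S6 kinases and the 4E-BP translation repressors. Signal through this pathway is carried largely by phosphorylation of proteins, which RNA levels do not measure. In Ewing sarcoma cells the pathway is known as a main route downstream of the IGF-1 receptor.

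Of the 41 genes, 6 stood above all 3 TC-71 samples on every array of the 3 resistant lines. These were the PI3K catalytic subunits PIK3CB and PIK3CD, the VPS34 partner PIK3R4, the mTOR complex 2 scaffold RICTOR, the mTOR inhibitor DEPTOR and the S6 kinase RPS6KB1. The lipid phosphatase INPPL1 and the translation repressor EIF4EBP2 stood below all TC-71 samples on every such array. The share of such genes was 14.6% above and 4.88% below, against 5.2% and 4.33% of all genes tested. As the genes were chosen with earlier results of these data known, these shares are not independent of the data. None of the 41 passed an adjusted p of 0.05 in limma with Benjamini-Hochberg adjustment in any of 6 comparisons. Over all genes tested, 0.0212% passed it in the lines in common against TC-71 and 0% in each of the other 5 comparisons. The values below therefore describe these samples and are not calls of changed genes.

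The arrays had medians of 5.39 to 5.45 over all probe sets. TC-71 sample 1 stood apart, with correlations across probe sets of 0.956 to 0.979 with the other 8 arrays, while the other TC-71 samples correlated at 0.983 with each other. Across the 41 genes it was the lowest of the 3 TC-71 samples in 19, the highest in 14 and in the middle in 8. The array names placed the samples in 3 sets. TC-71 sample 1 was alone in its set, both TC/AEW and TC/AVE shared theirs with TC-71 sample 2, and TC/CP shared its own with TC-71 sample 3. Differences within a set, line minus the TC-71 sample of that set, are given beside the pooled ones for the genes given in full. All 11 Ewing sarcoma markers examined reached 5 on every array, and their mean level was 9.70 to 9.85 on the arrays of the 3 lines and 9.62 to 10.07 in TC-71. Of 17 markers of other cell types, 8 reached 5 on every array and 10 on at least 1, with mean levels of 5.30 to 5.44 on the lines' arrays and 5.31 to 5.46 in TC-71. The blood markers PTPRC, CD14 and LYZ, the epithelial EPCAM and CDH1, the endothelial CDH5 and the fibroblast COL1A2 stayed under 5 on all 9 arrays, and CD3E and VWF reached 5 on some. The keratins KRT5 and KRT18 read above 5 on every array, and KRT18 was lower on each array of the lines, at 5.50 to 5.995, against 6.69 to 7.02 in TC-71. The fibroblast markers COL1A1, THY1, PDGFRB and DCN were above 6 on every array, as was the endothelial marker PECAM1. COL1A1 stood out in TC/CP, at 9.11 and 8.98, against 7.56, 7.27 and 7.80 in TC-71. PDGFRB read 6.45 to 6.75 on the arrays of the lines, against 7.49 to 7.86 in TC-71. DCN read 8.21 and 8.19 in TC/AEW, 8.64 and 8.47 in TC/AVE and 6.62 and 6.79 in TC/CP, against 6.91, 8.08 and 7.62 in TC-71. The Ewing marker LIPI read 5.13 to 5.86 on the arrays of the lines, against 6.48 to 7.45 in TC-71. Their part in the values below was not tested. HBB, a globin gene, read 5.74 to 6.13, so a level under 6 may be background, and a level under 5 was taken as near background. A probe set is called above background where it reached 5 on at least 2 arrays. Fewer cells with a transcript and less of it per cell cannot be told apart in such bulk samples.

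Promoter windows, which are 300 bases long and span each annotated start on assembly GRCh38.p14, were taken from RefSeq for 4 genes on which the results turn. EIF4EBP2, PIK3R4 and RICTOR are shown because all arrays of the lines lay on one side of TC-71, and PIK3CG because it stood apart in TC/CP and holds a tandem GGAA motif. Each of them has 1 window in the table. The sequences run 5′ to 3′ on the gene's strand, and capitals mark a motif match.

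EIF4EBP2, chr10:70403895-70404194, plus strand: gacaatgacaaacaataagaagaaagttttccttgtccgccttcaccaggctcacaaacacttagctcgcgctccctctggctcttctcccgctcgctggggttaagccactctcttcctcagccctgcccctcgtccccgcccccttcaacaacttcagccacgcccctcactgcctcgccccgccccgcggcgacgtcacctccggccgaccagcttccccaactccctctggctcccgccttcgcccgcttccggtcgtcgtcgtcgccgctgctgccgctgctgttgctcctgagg
PIK3R4, chr3:130746780-130747079, minus strand: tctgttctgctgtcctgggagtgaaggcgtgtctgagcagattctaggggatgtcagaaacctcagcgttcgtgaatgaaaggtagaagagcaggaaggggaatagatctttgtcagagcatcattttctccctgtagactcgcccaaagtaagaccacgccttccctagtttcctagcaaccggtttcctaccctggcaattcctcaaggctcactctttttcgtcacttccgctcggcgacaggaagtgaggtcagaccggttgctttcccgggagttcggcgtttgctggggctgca
RICTOR, chr5:39074350-39074649, minus strand: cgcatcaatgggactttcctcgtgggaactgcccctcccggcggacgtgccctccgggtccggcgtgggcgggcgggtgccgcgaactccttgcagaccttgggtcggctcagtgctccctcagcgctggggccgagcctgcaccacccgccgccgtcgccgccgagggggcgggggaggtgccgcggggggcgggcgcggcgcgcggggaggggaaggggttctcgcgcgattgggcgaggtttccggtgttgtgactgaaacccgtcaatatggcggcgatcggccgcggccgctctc
PIK3CG, chr7:106865229-106865528, plus strand: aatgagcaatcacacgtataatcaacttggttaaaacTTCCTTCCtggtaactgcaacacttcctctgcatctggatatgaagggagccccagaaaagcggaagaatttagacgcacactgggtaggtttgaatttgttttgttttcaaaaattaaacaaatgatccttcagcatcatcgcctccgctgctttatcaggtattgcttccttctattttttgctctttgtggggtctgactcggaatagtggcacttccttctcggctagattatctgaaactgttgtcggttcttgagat

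Base composition differed widely among them, with 64.3% GC in EIF4EBP2, 53.0% in PIK3R4, 74.0% in RICTOR and 41.7% in PIK3CG, against a median of 58.7% over 35116 windows. Motifs were searched on both strands in 62 windows of 37 of the measured genes. DEPTOR, EIF4EBP1, MLST8 and AKT1S1 had no window in this search. Windows of the measured genes on 1 chromosome were left out, while the shares of all windows kept that chromosome. The forkhead motif GTAAACA, bound by the FOXO factors that AKT restrains, was in 1 of these windows (1.61%), that of STK11, against 3.42% of all windows. The tandem GGAAGGAA, an ETS-type element, was in those of PIK3CG and TSC1 (3.23%), against 3.67%. The E-box CACGTG was in windows of EIF4E, INPP4B and TSC2 (4.84%), against 7.26%. None of the 3 motifs was in the windows of EIF4EBP2, PIK3R4 and RICTOR shown above. A match is only a run of letters in this window.

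Among the class I catalytic subunits, PIK3CB and PIK3CD stood higher in all 3 lines, and PIK3CG stood high in TC/CP. PIK3CB, the beta catalytic subunit, read 8.06 and 8.11 in TC/AEW, 8.30 and 8.38 in TC/AVE and 8.09 and 8.04 in TC/CP, against 6.98, 7.70 and 7.55 in TC-71. All 6 arrays of the lines lay above the highest TC-71 sample. The differences from TC-71 were 0.68 ± 0.34 in TC/AEW, 0.93 ± 0.34 in TC/AVE and 0.66 ± 0.34 in TC/CP (SE), which is 1.60-fold, 1.90-fold and 1.58-fold in that order. Within the array sets they were 0.39 in TC/AEW, 0.64 in TC/AVE and 0.52 in TC/CP. The lines in common stood 0.75 ± 0.21 above TC-71 (adjusted p = 0.397, limma), and 0.51 ± 0.13 with the array set as a block. Its other probe set, at 5.41 ± 0.41 in TC-71 (SD, n = 3), differed by 0.64 in TC/AEW and 0.83 in TC/AVE but by -0.09 in TC/CP.

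PIK3CD encodes the delta catalytic subunit, best known from leukocytes. It read 7.09 and 7.12 in TC/AEW, 6.87 and 6.83 in TC/AVE and 6.61 and 6.64 in TC/CP, against 6.07, 6.26 and 6.13 in TC-71. The lines stood in steps above TC-71 with no overlap, highest in TC/AEW. The differences were 0.95 ± 0.21 in TC/AEW, 0.69 ± 0.21 in TC/AVE and 0.47 ± 0.21 in TC/CP, and 0.71 ± 0.16 for the lines in common. Each set on its own gave 0.845 in TC/AEW, 0.585 in TC/AVE and 0.492 in TC/CP. The value for the lines in common had the lowest p of the 41 genes in the comparison, 0.00289 before and 0.31 after adjustment in limma. TC/AEW against the antibody-selected lines differed by 0.37 ± 0.23 (adjusted p = 1, limma), so the steps between lines were not separated by the test. A second probe set of PIK3CD, at 6.08 ± 0.46 in TC-71 (SD, n = 3), had the opposite sign, with -0.32 in TC/AEW, -0.03 in TC/AVE and -0.54 in TC/CP. The mean of all its probe sets gave 0.32 in TC/AEW, 0.33 in TC/AVE and 0.21 for the lines in common. The gene's direction thus depended on the probe set, and in TC-71 both read close to 6, near the level where background is possible.

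PIK3CG, the gamma catalytic subunit that responds to G protein-coupled receptors, was higher in TC/CP alone among the lines. Its levels were 5.23 and 5.14 in TC/AEW, 5.10 and 5.17 in TC/AVE and 6.96 and 6.83 in TC/CP, against 4.42, 5.85 and 4.59 in TC-71. Both TC/CP arrays lay above all TC-71 samples, while the other lines lay inside the TC-71 range. TC/CP differed from TC-71 by 1.95 ± 0.60 (adjusted p = 0.832, limma), by 2.31 within its array set, and by 1.68 without TC-71 sample 1. TC/AEW differed by 0.23 pooled and -0.66 within its set, and TC/AVE by 0.18 pooled and -0.71 within the same set. TC/AVE stood 1.76 ± 0.74 below TC/CP on the log2 scale (adjusted p = 0.902, limma). The TC-71 mean was under 5, near background, so no fold is given. The second probe set above background differed by 0.27 in TC/CP, and the mean of all probe sets by 0.95.

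The class I regulatory subunits, which hold and recruit the catalytic ones, mostly overlapped TC-71. PIK3R1, the p85 alpha adaptor, read 9.16 and 9.21 in TC/AEW, 9.05 and 9.04 in TC/AVE and 9.34 and 9.33 in TC/CP, against 9.07, 9.71 and 9.79 in TC-71. It stood 0.34 in TC/AEW, 0.48 in TC/AVE and 0.19 in TC/CP below the TC-71 mean, and its 2 other probe sets were also lower in each line. TC/AVE alone lay below all TC-71 samples, just under sample 1. PIK3R3 differed by 0.08 in TC/AEW, -0.06 in TC/AVE and 0.33 in TC/CP. PIK3R5, which pairs with the gamma subunit, read 5.77 to 5.94 on the lines' arrays and 5.74 to 5.995 in TC-71, where background is possible.

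Class II and III kinases make lipids used in vesicle traffic and autophagy. PIK3R4, the VPS15 partner of VPS34, read 8.80 and 8.85 in TC/AEW, 8.98 and 8.996 in TC/AVE and 9.05 and 8.97 in TC/CP, against 8.40, 8.35 and 8.54 in TC-71. All lines lay above TC-71, and the gap to the highest TC-71 sample exceeded the range of the 3 TC-71 samples. The differences were 0.39 ± 0.21 in TC/AEW, 0.56 ± 0.21 in TC/AVE and 0.58 ± 0.21 in TC/CP, and 0.51 ± 0.13 for the lines in common (1.42-fold, adjusted p = 0.347, limma). Within the array sets the differences were 0.47 in TC/AEW, 0.64 in TC/AVE and 0.47 in TC/CP. Its value for the lines in common kept between 0.47 and 0.56 when each TC-71 sample was left out.

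PIK3C3, which is VPS34 itself, was spread differently. It read 9.02 and 9.15 in TC/AEW, 8.77 and 8.82 in TC/AVE and 9.51 and 9.43 in TC/CP, against 8.69, 9.34 and 9.05 in TC-71. TC/CP lay above all TC-71 samples and the other lines within their range. TC/AVE differed from TC/CP by -0.67 ± 0.38 (adjusted p = 1, limma). Differences from TC-71 were 0.06 in TC/AEW, -0.23 in TC/AVE and 0.44 in TC/CP, and within the array sets -0.26 in TC/AEW, -0.54 in TC/AVE and 0.42 in TC/CP. Its 3 other probe sets above background differed by -0.22 to -0.27 in TC/CP, the opposite sign to the 0.44 of the brightest. For TC/AVE minus TC/CP they gave 0.10 to 0.33, again the opposite sign, and the mean of all probe sets gave -0.02. PIK3C2A stood 0.19 in TC/AEW, 0.23 in TC/AVE and 0.46 in TC/CP above the TC-71 mean. Of its 5 other probe sets above background, all had that sign in TC/AEW and TC/AVE, but only 2 in TC/CP. PIK3C2B stood 0.21 in TC/AEW, 0.35 in TC/AVE and 0.09 in TC/CP below the TC-71 mean.

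The lipid phosphatases, which remove phosphates from PI3K products, held the widest contrast between the antibody-selected lines. INPP4B, a phosphatase that acts on phosphatidylinositol bisphosphate, read 5.36 and 5.85 in TC/AEW, 3.90 and 3.87 in TC/AVE and 6.93 and 6.92 in TC/CP, against 5.19, 6.90 and 5.36 in TC-71. TC/AVE lay below all TC-71 samples and near background, and TC/CP lay above all of them, though only just above sample 2. The difference of TC/AVE from TC-71 was -1.93 ± 0.71 and that of TC/CP was 1.11 ± 0.71. TC/AVE minus TC/CP was -3.03 ± 0.88 (unadjusted p = 0.0179, adjusted p = 0.702, limma). As TC/AVE was near background, no fold is given. TC-71 itself varied more here than in any other of the 41 genes, with an SD of 0.94. Within the array sets TC/AVE differed by -3.01 and TC/CP by 1.56, and TC/AEW by -1.29, where the pooled value was -0.21. Leaving out each TC-71 sample in turn gave -2.24 to -1.39 in TC/AVE and 0.79 to 1.65 in TC/CP. The second probe set above background gave -0.94 in TC/AVE, 1.10 in TC/CP and -0.39 in TC/AEW, and -2.04 for TC/AVE minus TC/CP.

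INPP5D is SHIP1, a phosphatase best known from blood cells. It read 6.17 and 6.24 in TC/AEW, 5.75 and 5.51 in TC/AVE and 6.53 and 6.58 in TC/CP, against 6.01, 6.81 and 6.24 in TC-71. TC/AVE lay below all TC-71 samples, at a level where background is possible, and the other lines lay within them. The TC/AVE difference was -0.72 ± 0.36, and -1.17 within its array set. Its other probe set above background gave -0.27 in TC/AVE, and the mean of all its probe sets gave -0.34. TC/AEW differed by -0.15 pooled and -0.60 within its set, and TC/CP by 0.20 pooled and 0.32 within its own. INPPL1 is the related and more broadly expressed SHIP2. It read 7.11 and 7.34 in TC/AEW, 7.37 and 7.29 in TC/AVE and 7.48 and 7.49 in TC/CP, against 7.99, 7.60 and 7.81 in TC-71. All lines lay below TC-71, furthest in TC/AEW at -0.58 ± 0.25, with -0.47 ± 0.25 in TC/AVE and -0.32 ± 0.25 in TC/CP. Each set on its own gave -0.38 in TC/AEW, -0.27 in TC/AVE and -0.32 in TC/CP. The lines in common differed by -0.46 ± 0.15 (1.37-fold lower, adjusted p = 0.488, limma), and by -0.33 ± 0.11 with the array set as a block. INPP4A stood 0.12 in TC/AEW, 0.24 in TC/AVE and 0.32 in TC/CP above the TC-71 mean. Of its 4 other probe sets above background, 2 had that sign in TC/AEW, 2 in TC/AVE and 1 in TC/CP.

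**Figure D1:**
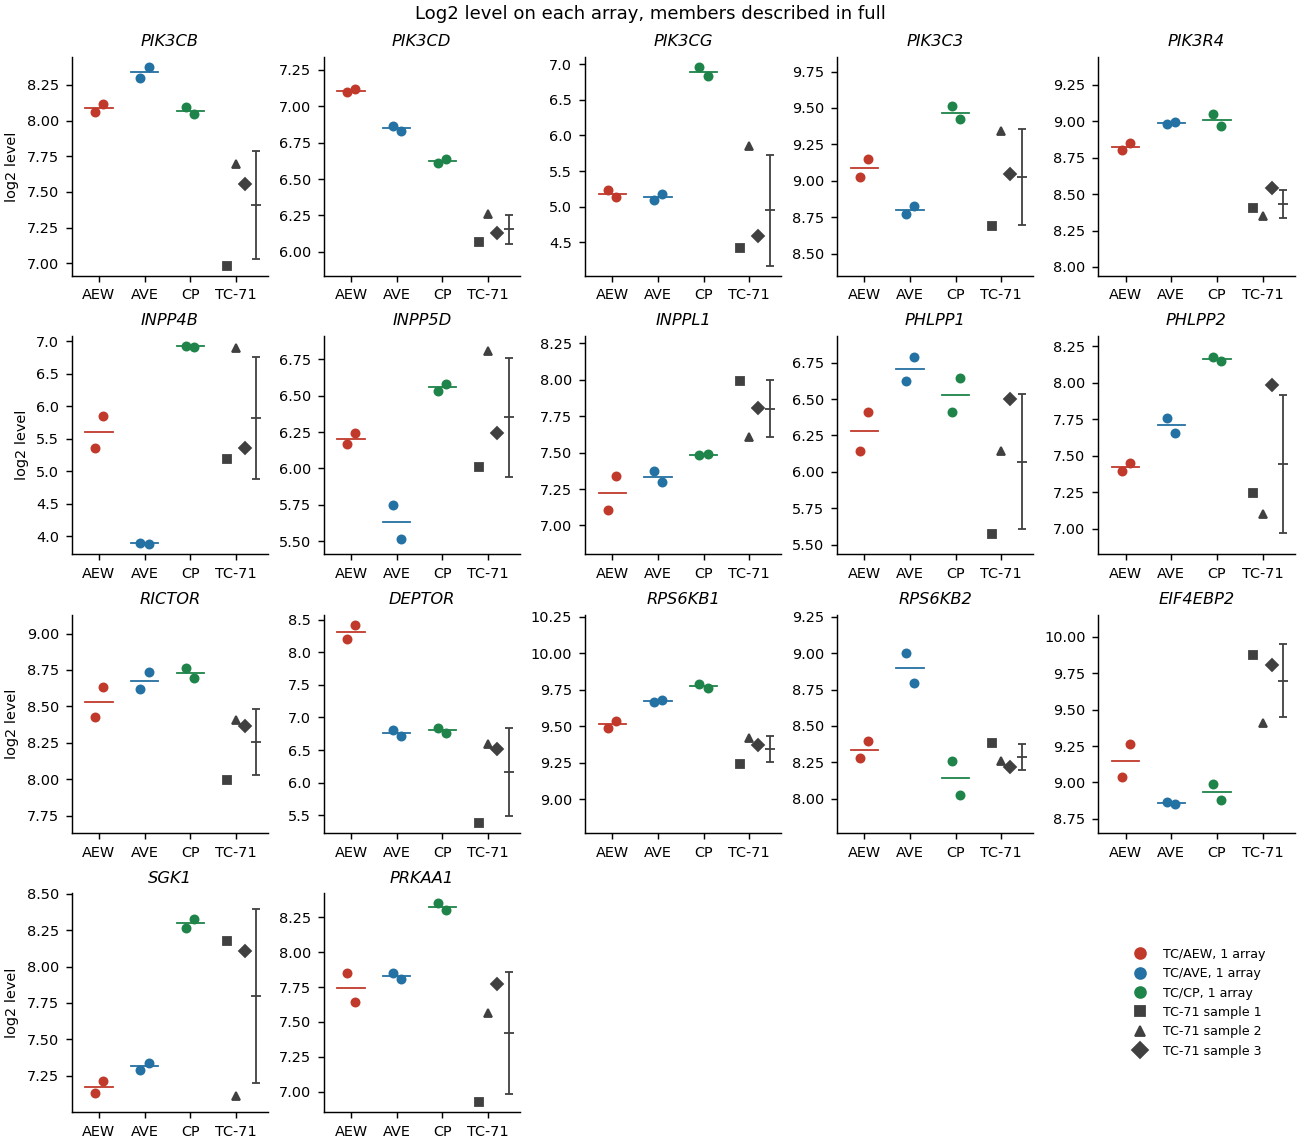
Log2 RNA level (vertical axis, range set per gene) of the 17 genes with values given in full, on each array of the 3 resistant lines (circles, with the line mean as a bar) and in each TC-71 sample (square, triangle and diamond, with the mean and SD of the 3 at the right). DEPTOR stands at 8.20 and 8.42 in TC/AEW, INPP4B at 3.90 and 3.87 in TC/AVE, and EIF4EBP2 lies below all TC-71 samples in every line.

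AKT and the enzymes that act on it mostly overlapped TC-71. AKT1 read 8.78 and 9.03 in TC/AEW, 8.98 and 9.03 in TC/AVE and 9.09 and 9.02 in TC/CP, against 9.69, 8.94 and 9.27 in TC-71. The lines overlapped TC-71. The pooled differences were -0.40 in TC/AEW, -0.29 in TC/AVE and -0.25 in TC/CP, and those within the array sets were -0.04 in TC/AEW, 0.07 in TC/AVE and -0.22 in TC/CP. AKT2 differed by -0.21 in TC/AEW, 0.37 in TC/AVE and 0.06 in TC/CP, with TC/AVE above all TC-71 samples. Of its 5 other probe sets above background, 2 had the sign of the chosen one in TC/AEW, 4 in TC/AVE and 1 in TC/CP. PDPK1, which encodes PDK1, differed by -0.30 in TC/AEW, 0.15 in TC/AVE and 0.24 in TC/CP. TC/AEW lay below all TC-71 samples for this probe set, and none of its 3 other probe sets above background had that sign.

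The phosphatase PHLPP1, which removes an activating phosphate from AKT, read 6.14 and 6.41 in TC/AEW, 6.62 and 6.79 in TC/AVE and 6.41 and 6.65 in TC/CP, against 5.58, 6.14 and 6.50 in TC-71. TC/AVE lay above all TC-71 samples, at 0.64 ± 0.39, or 0.39 without TC-71 sample 1 and 0.57 within its array set. TC/AEW differed by 0.21 pooled and 0.14 within its set, and TC/CP by 0.46 pooled and 0.03 within its own. PHLPP2, its paralogue, read 7.40 and 7.45 in TC/AEW, 7.76 and 7.66 in TC/AVE and 8.18 and 8.15 in TC/CP, against 7.24, 7.10 and 7.99 in TC-71. TC/CP lay above all TC-71 samples, at 0.72 ± 0.40 pooled but 0.18 against the sample of its own array set. TC/AEW differed by -0.02 pooled and 0.33 within its set, and TC/AVE by 0.27 pooled and 0.61 within the same set. The other probe set of PHLPP2 gave 0.09 in TC/CP.

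The TSC complex and RHEB stood within 0.29 of the TC-71 mean in each line. TSC1 differed by 0.02 in TC/AEW, -0.05 in TC/AVE and 0.29 in TC/CP, and TSC2 differed by -0.21 in TC/AEW, -0.03 in TC/AVE and 0.06 in TC/CP. RHEB, the small GTPase that activates mTOR complex 1, read 11.53 and 11.68 in TC/AEW, 11.87 and 11.90 in TC/AVE and 11.52 and 11.52 in TC/CP, against 11.65, 11.64 and 11.64 in TC-71. Its TC-71 SD of 0.008 was the smallest of the 41 genes, and TC/AVE lay above and TC/CP below those 3 samples. TC/AVE minus TC/CP was 0.37 ± 0.25 (adjusted p = 1, limma). The probe set is of the _x_at kind, prone to cross-hybridisation, and of 5 others above background 4 had its sign in TC/AVE and 3 in TC/CP.

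DEPTOR, which binds and inhibits mTOR, had the largest pooled difference from TC-71 among the 41 genes, whereas within the array sets INPP4B in TC/AVE and PIK3CG in TC/CP differed by more. It read 8.20 and 8.42 in TC/AEW, 6.80 and 6.72 in TC/AVE and 6.84 and 6.76 in TC/CP, against 5.38, 6.59 and 6.51 in TC-71. TC/AEW stood far above every other array, and the antibody-selected lines lay just above TC-71 samples 2 and 3. TC/AEW differed from TC-71 by 2.15 ± 0.53, or 4.44-fold (unadjusted p = 0.00992, adjusted p = 1, limma). Against TC-71 sample 2 of its own array set the difference was 1.72, and without TC-71 sample 1 it was 1.76. TC/AEW stood 1.53 ± 0.56 above the antibody-selected lines (2.88-fold, unadjusted p = 0.0424, adjusted p = 1, limma), and 1.55 above TC/AVE, which shares its array set.

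In the antibody-selected lines the DEPTOR values leaned on TC-71 sample 1. The differences of 0.60 ± 0.53 in TC/AVE and 0.64 ± 0.53 in TC/CP came to 0.21 and 0.25 without that sample, and to 0.17 and 0.29 within the array sets. For the lines in common the difference was 1.13 ± 0.50 (adjusted p = 0.603, limma), and 0.74 without that sample. Only 1 probe set of the gene was above background.

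RICTOR, the scaffold of mTOR complex 2, read 8.43 and 8.63 in TC/AEW, 8.62 and 8.73 in TC/AVE and 8.76 and 8.69 in TC/CP, against 7.997, 8.41 and 8.36 in TC-71. All lines lay above TC-71, the first TC/AEW array only just. The lines in common stood 0.39 ± 0.15 above (1.31-fold, adjusted p = 0.577, limma), 0.26 without TC-71 sample 1 and 0.27 ± 0.12 with the array set as a block. Pooled differences were 0.28 in TC/AEW, 0.42 in TC/AVE and 0.47 in TC/CP, and those within the array sets 0.12 in TC/AEW, 0.27 in TC/AVE and 0.36 in TC/CP. Its 2 other probe sets above background were also higher in every line, at 0.16 to 0.51. The scaffold of mTOR complex 1, RPTOR, stood at -0.04 in TC/AEW, -0.19 in TC/AVE and 0.14 in TC/CP.

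MTOR, the kinase, read 7.53 and 7.53 in TC/AEW, 7.50 and 7.37 in TC/AVE and 7.89 and 7.83 in TC/CP, against 7.31, 7.43 and 7.58 in TC-71. TC/CP lay above all TC-71 samples, at 0.42, and 0.28 within its array set. The other probe set of MTOR, also above background, had the opposite sign in TC/CP, at -0.11. MLST8, a subunit of both complexes, differed by -0.27 in TC/AEW, -0.17 in TC/AVE and -0.54 in TC/CP. AKT1S1, which encodes the mTOR complex 1 inhibitor PRAS40, differed by -0.47 in TC/AEW, -0.15 in TC/AVE and -0.48 in TC/CP, with TC/AEW and TC/CP below all TC-71 samples. MAPKAP1, the SIN1 subunit of mTOR complex 2, lay within 0.03 of TC-71 in each line for the chosen probe set. All its other probe sets above background were higher than TC-71 in every line, by 0.04 to 0.64. Its position thus depended on the probe set.

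**Figure D2:**
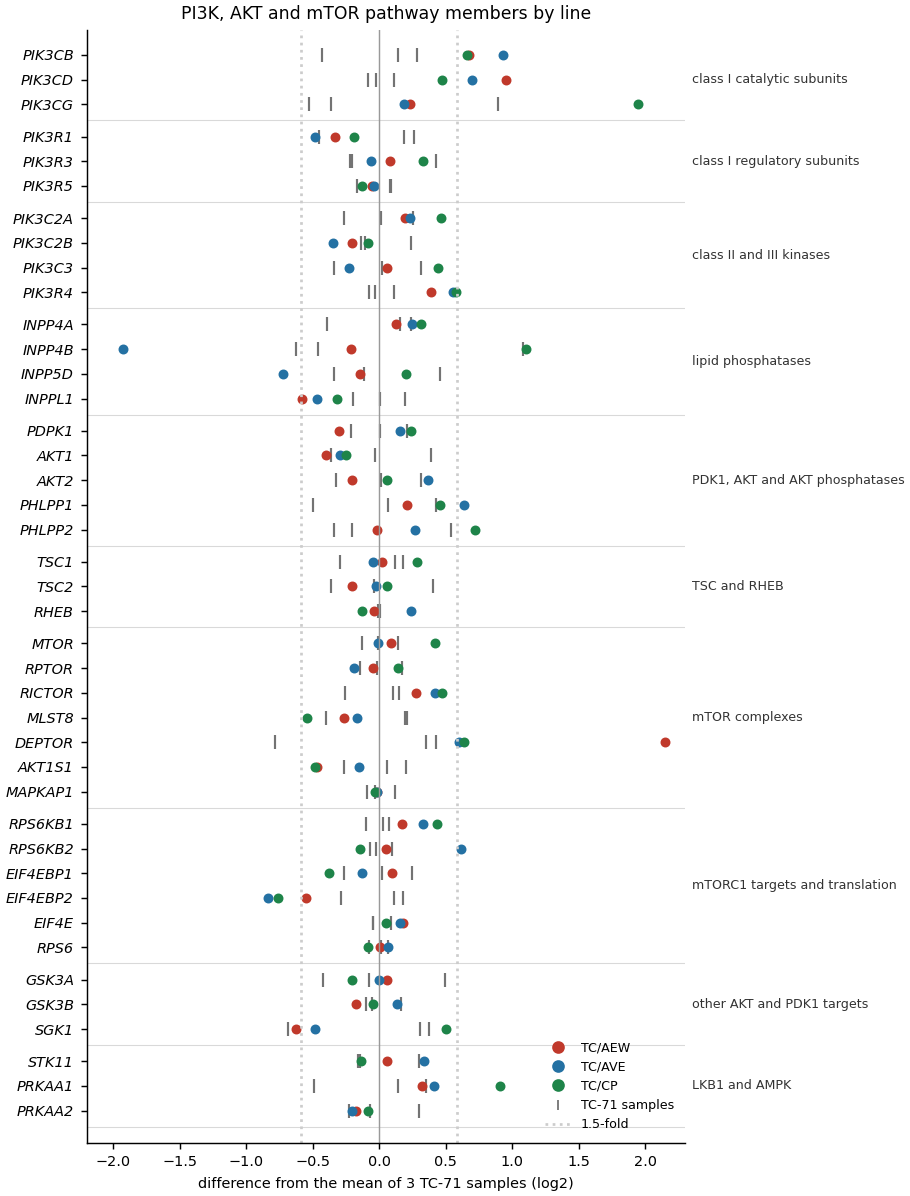
Difference of each line from the mean of 3 TC-71 samples (horizontal axis, log2) for the 41 measured genes, ordered by role from top to bottom, with grey ticks for the single TC-71 samples and dotted lines at 1.5-fold. Most circles lie within or near the ticks, and the widest departures are DEPTOR in TC/AEW at 2.15, PIK3CG in TC/CP at 1.95 and INPP4B in TC/AVE at -1.93.

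EIF4EBP2 lay below all TC-71 samples in every line. It encodes a 4E-BP, which binds the cap-binding protein eIF4E and represses translation until mTOR complex 1 phosphorylates it. Its levels were 9.04 and 9.26 in TC/AEW, 8.87 and 8.86 in TC/AVE and 8.99 and 8.88 in TC/CP, against 9.88, 9.41 and 9.81 in TC-71. Every array of the lines lay below the lowest TC-71 sample. The differences were -0.55 ± 0.27 in TC/AEW, -0.84 ± 0.27 in TC/AVE and -0.76 ± 0.27 in TC/CP. The lines in common differed by -0.72 ± 0.17, or 1.64-fold lower (unadjusted p = 0.00369, adjusted p = 0.336, limma). Within the array sets the differences were -0.26 in TC/AEW, -0.55 in TC/AVE and -0.87 in TC/CP, and with the set as a block the lines in common differed by -0.60 ± 0.17. All 3 other probe sets above background were also lower in every line, at -0.15 to -1.11.

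The other 4E-BP gene of the list lay below all TC-71 samples in TC/CP alone. EIF4EBP1, which encodes the best known of these repressors, differed by 0.10 in TC/AEW, -0.13 in TC/AVE and -0.38 in TC/CP. Within the array sets it was lower in each line, by -0.15 in TC/AEW, -0.37 in TC/AVE and -0.11 in TC/CP. EIF4E, the cap-binding protein, differed by 0.18 in TC/AEW, 0.15 in TC/AVE and 0.05 in TC/CP, with TC/AEW and TC/AVE above all TC-71 samples. RPS6, the ribosomal protein phosphorylated by S6 kinases, lay within 0.09 of TC-71 in each line.

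The S6 kinases stood above TC-71 in different lines. RPS6KB1, which encodes S6K1, read 9.49 and 9.54 in TC/AEW, 9.67 and 9.68 in TC/AVE and 9.79 and 9.76 in TC/CP, against 9.24, 9.42 and 9.37 in TC-71. All lines lay above TC-71, by a small distance. The lines in common stood 0.31 ± 0.13 above (1.24-fold, adjusted p = 0.594, limma), and the 2 other probe sets gave 0.33 and 0.21. Pooled differences were 0.17 in TC/AEW, 0.33 in TC/AVE and 0.43 in TC/CP, and those within the array sets 0.10 in TC/AEW, 0.26 in TC/AVE and 0.40 in TC/CP. RPS6KB2, which encodes S6K2, read 8.28 and 8.39 in TC/AEW, 9.003 and 8.79 in TC/AVE and 8.26 and 8.03 in TC/CP, against 8.38, 8.26 and 8.22 in TC-71. Only TC/AVE lay above all TC-71 samples on both arrays, at 0.61 ± 0.21 (1.53-fold) and at 0.64 within its array set. TC/AEW differed by 0.05 pooled and 0.08 within its set, and TC/CP by -0.15 pooled and -0.08 within its own. TC/AVE minus TC/CP was 0.76 ± 0.26 (1.69-fold, unadjusted p = 0.0322, adjusted p = 0.796, limma).

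Among other targets of AKT and PDK1, SGK1 split the TC-71 samples themselves. This kinase, activated by mTOR complex 2 and PDK1, read 7.13 and 7.21 in TC/AEW, 7.29 and 7.34 in TC/AVE and 8.27 and 8.33 in TC/CP, against 8.17, 7.11 and 8.11 in TC-71. TC/AEW and TC/AVE stood near TC-71 sample 2, which shares their array set, and TC/CP near sample 3, which shares its own. The pooled differences were -0.62 ± 0.48 in TC/AEW, -0.48 ± 0.48 in TC/AVE and 0.50 ± 0.48 in TC/CP. Within the array sets they were 0.06 in TC/AEW, 0.20 in TC/AVE and 0.19 in TC/CP. The TC/AVE minus TC/CP difference of -0.98 ± 0.59 (adjusted p = 1, limma) lies between array sets and cannot be told apart from them. GSK3A differed by 0.06 in TC/AEW, -0.01 in TC/AVE and -0.21 in TC/CP, and GSK3B by -0.18 in TC/AEW, 0.13 in TC/AVE and -0.05 in TC/CP. Other GSK3B probe sets above background ranged from -0.56 to 0.34 in TC/AEW, -0.23 to 0.72 in TC/AVE and -0.41 to 0.56 in TC/CP.

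The AMP-activated kinase, which restrains mTOR complex 1 when energy is low, was represented by PRKAA1, PRKAA2 and its activator STK11. PRKAA1 read 7.85 and 7.64 in TC/AEW, 7.85 and 7.81 in TC/AVE and 8.35 and 8.30 in TC/CP, against 6.93, 7.56 and 7.77 in TC-71. TC/CP and TC/AVE lay above all TC-71 samples, while 1 TC/AEW array did not. TC/CP stood 0.91 ± 0.38 above TC-71 (1.87-fold, adjusted p = 0.998, limma), 0.66 without TC-71 sample 1 and 0.56 within its array set. TC/AEW differed by 0.32 pooled and 0.18 within its set, and TC/AVE by 0.41 pooled and 0.27 within the same set. All 3 other probe sets of PRKAA1 above background were higher than TC-71 in each line. STK11 differed by 0.06 in TC/AEW, 0.34 in TC/AVE and -0.14 in TC/CP. PRKAA2 read 4.90 to 5.26 on the lines' arrays and 4.96 to 5.48 in TC-71, where background is possible.

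**Figure D3:**
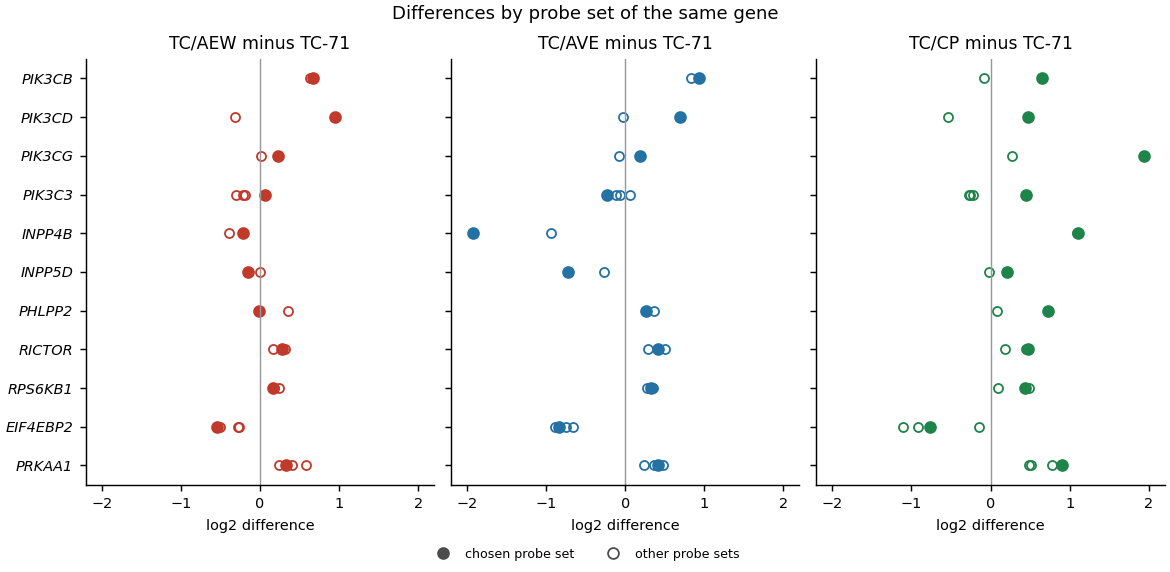
Difference from the TC-71 mean (horizontal axis, log2) by probe set, for the genes with values in full that have more than 1 probe set above background, in 1 panel per line, with filled circles for the chosen probe set and open circles for the others. EIF4EBP2, RICTOR, RPS6KB1 and PRKAA1 have all circles on one side in each line, whereas the PIK3CD circles fall on both sides.

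Across probe sets, 27 of the 41 genes had at least 1 other probe set above background, 61 in all. Of these, 35 had the sign of the chosen probe set in TC/AEW, 48 in TC/AVE and 34 in TC/CP. For the 8 genes with every array of the lines on one side of TC-71, 8 of 9 other probe sets had the chosen sign for the lines in common, PIK3CD being the exception.

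Counts by line were set against all genes tested. In TC/AEW, 3 of the 41 genes stood at least 1.5-fold above TC-71 (7.32%, against 5.67% of all genes) and 1 at least 1.5-fold below (2.44%, against 2.77%). In TC/AVE these were 5 above (12.2%, against 6.87%) and 3 below (7.32%, against 6.04%). In TC/CP they were 6 above (14.6%, against 6.96%) and 1 below (2.44%, against 2.83%). For the lines in common they were 4 above (9.76%, against 4.68%) and 1 below (2.44%, against 2%). PIK3CB and DEPTOR were past 1.5-fold above TC-71 in each line, which rested on TC-71 sample 1. Without that sample, a setting added after the data were seen, PIK3CB was past it in TC/AVE alone among the single lines and DEPTOR in TC/AEW alone. The counts above TC-71 were then 2 in TC/AEW (4.88%, against 3.43% of all genes), 3 in TC/AVE (7.32%, against 5%), 5 in TC/CP (12.2%, against 5.24%) and 2 in the lines in common (4.88%, against 2.67%). Those below were 0 in TC/AEW (against 3% of all genes) and 4 in TC/AVE (9.76%, against 7.01%). They were 1 in TC/CP (2.44%, against 3.4%) and 2 in the lines in common (4.88%, against 2.39%). Without TC-71 sample 2, 4 stood below in TC/AEW (9.76%, against 4.85%), where AKT1S1, EIF4EBP2 and INPPL1 joined SGK1. In TC/CP 2 then stood below (4.88%, against 3.15%). Without TC-71 sample 3, 10 stood above in TC/CP (24.4%, against 9.43%) and 7 in the lines in common (17.1%, against 6.06%). Below stood 0 in TC/AEW (against 2.75%) and 2 in TC/CP (4.88%, against 3.88%). The comparisons share the same TC-71 samples.

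At an unadjusted p under 0.05 in limma, PIK3CD and DEPTOR passed in TC/AEW (4.88%, against 3.52% of all genes). In TC/AVE these were PIK3CB, PIK3CD, PIK3R4, INPP4B, RPS6KB2 and EIF4EBP2 (14.6%, against 7.23%), and in TC/CP they were PIK3CG, PIK3R4 and EIF4EBP2 (7.32%, against 4.93%). For the lines in common 7 genes passed (17.1%, against 8.39%), namely PIK3CB, PIK3CD, PIK3R4, INPPL1, RICTOR, RPS6KB1 and EIF4EBP2. The median difference of the 41 genes from TC-71 was 0.004 in TC/AEW, -0.005 in TC/AVE, 0.144 in TC/CP and 0.032 in the lines in common, against 0.001, -0.018, -0.002 and -0.006 over all genes. The median size of the differences was 0.193, 0.244, 0.317 and 0.215, against 0.171, 0.196, 0.187 and 0.152.

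Between the lines, PIK3CG and SGK1 stood at least 1.5-fold lower in TC/AEW than the mean of the antibody-selected lines (4.88%, against 1.76% of all genes). TC/AEW minus TC/AVE was 0.05 for PIK3CG and -0.14 for SGK1, so TC/CP, in another array set, carried most of both gaps. DEPTOR alone stood higher in TC/AEW than that mean by as much (2.44%, against 2.79%). DEPTOR was the 1 gene with an unadjusted p under 0.05 there (2.44%, against 1.81%). In TC/AVE against TC/CP, RPS6KB2 was past 1.5-fold higher (2.44%, against 5.76%), and PIK3CG, PIK3C3, INPP4B, INPP5D and SGK1 were past it lower (12.2%, against 9.39%). For PIK3C3 the other probe sets above background had the opposite sign. INPP4B and RPS6KB2 had an unadjusted p under 0.05 there (4.88%, against 5.78%).

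**Figure D4:**
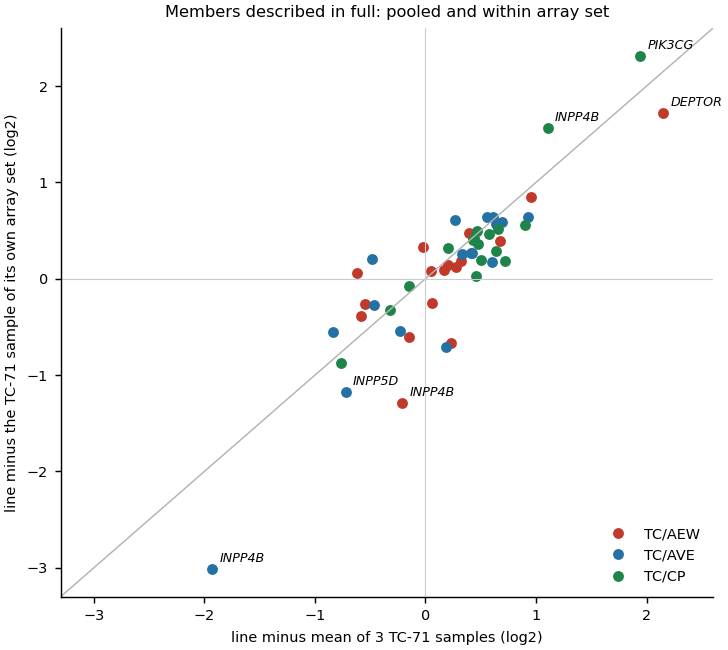
Difference of each line from the mean of 3 TC-71 samples (horizontal axis, log2) against its difference from the TC-71 sample of its own array set (vertical axis, log2) for the 17 genes with values in full, coloured by line, with the diagonal as equality. DEPTOR in TC/AEW at 2.15 and 1.72 and PIK3CG in TC/CP at 1.95 and 2.31 keep their place, while INPP4B in TC/AEW is at -0.21 and -1.29.

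A wider list of 68 pathway genes, with nutrient sensing, stress inhibitors and further subunits, had 61 tested and 0 that passed the adjusted threshold in limma in any of the 6 comparisons. At an unadjusted p under 0.05 there were 1 in TC/AEW, 2 in TC/AVE, 2 in TC/CP and 2 in the lines in common, where the shares of all genes were 3.52%, 7.23%, 4.93% and 8.39% in that order. At least 1.5-fold above TC-71 were 4 in TC/AEW (6.56%, against 5.67% of all genes), 2 in TC/AVE (3.28%, against 6.87%) and 2 in TC/CP (3.28%, against 6.96%). At least 1.5-fold below were 2 in each line (3.28%), against 2.77% in TC/AEW, 6.04% in TC/AVE and 2.83% in TC/CP. Of the 61, 0 lay above all TC-71 samples on every array of the lines, against 5.2% of all genes, and 2 lay below (3.28%, against 4.33%), the translation initiation factor gene EIF4B and the inositol phosphatase gene INPP5A. EIF4B, named after its values were seen, read 11.91 and 11.91 in TC/AEW, 11.71 and 11.62 in TC/AVE and 11.89 and 11.87 in TC/CP, against 12.25, 12.11 and 12.20 in TC-71. The lines in common differed by -0.37 ± 0.13 for it (adjusted p = 0.499, limma), the lowest adjusted p of the wider list in that comparison. The largest differences in TC/AEW were those of DDIT4, SESN2, SYNJ2 and TRIB3. DDIT4, which encodes the mTOR complex 1 inhibitor REDD1, read 12.20 and 12.23 in TC/AEW, 11.33 and 11.41 in TC/AVE and 10.65 and 10.68 in TC/CP, against 9.62, 12.83 and 9.93 in TC-71. TC-71 sample 2 stood above every other array for it, and the same held for SESN2 at 10.77 and for TRIB3, an AKT-binding protein, at 11.68. The inositol phosphatase SYNJ2 lay below all TC-71 samples in TC/AEW, at 6.77 and 6.95, against 8.01, 7.54 and 7.69 in TC-71, a difference of -0.88 ± 0.27 (adjusted p = 1, limma). In TC/CP, TSC22D1 read 9.10 and 9.14, against 9.92, 10.61 and 10.03 in TC-71, a difference of -1.07 ± 0.34 (adjusted p = 0.85, limma). In TC/AVE, PRKAG2, a regulatory subunit of the AMP-activated kinase, read 7.59 and 7.41, against 6.49, 6.84 and 6.67 in TC-71, a difference of 0.84 ± 0.24 (adjusted p = 0.58, limma).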

How the data were processed

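Per the labels' protocols, TRIzol served to extract total RNA, and biotin labelling used 2 µg of it. The deposited values were log2 levels per probe set, which the authors made with RMA and affy, per the submitters' processing notes. Their versions are not given in the sources used here. Of 54613 non-control probe sets, 41091 carried 1 gene symbol, 1801 several and 11721 none. Gene IDs of 41037 single-symbol probe sets matched a RefSeq table for GRCh38.p14, and 0 symbols were updated.

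Genes were tested where their brightest single-symbol probe set reached 5 on at least 2 of the 9 arrays. Technical replicate arrays were averaged per line, which gave 6 samples. Tests were two-sided in limma 3.58.1 (R 4.3.3) with p-values adjusted by Benjamini-Hochberg over all genes and called at 0.05. A fit with 4 groups (2 residual degrees of freedom) served single lines and contrasts between lines, and a fit with 2 groups (4 residual) the lines in common. With 1 sample per line, the residual spread in single-line tests came from TC-71 and the line was assumed to vary like it. In the fit for the lines in common, differences between the 3 lines also entered the residual spread. In both fits limma drew each gene's variance toward that of all genes, with 3.01 prior degrees of freedom for 4 groups and 3.06 for 2. Errors of differences are moderated standard errors. The labels call the TC-71 samples biological replicates without naming separate cultures, so the spread among them may be technical. The p-values may therefore not reflect spread between cultures. Precision is limited by the number of arrays.

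Values in full are given for genes with every array of the lines on one side of all TC-71 samples, at least 1.5-fold from TC-71 in any line, or at least 1.5-fold apart between TC/AVE and TC/CP, which were 17. Other genes are given by role. The genes and lists were chosen with earlier results of these data known. The fit was tested on simulated data. Alternatives covered the probe set rule, the level filter, centring, a variance trend, single arrays, left-out samples and lines, and the array set.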

Additional observations from a re-analysis of the deposited data

Results flagged for a closer look

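Both results below are listed because TC/AVE and TC/CP lay beyond all 3 TC-71 samples on opposite sides. The share of all genes tested with this pattern was not counted, so neither is shown to be unusual. For RHEB the TC-71 samples had an SD of only 0.008. INPP4B differed by -3.03 on the log2 scale between TC/AVE and TC/CP, with means of 3.89 in TC/AVE, 6.92 in TC/CP and 5.82 in TC-71. The difference itself was tested in limma and had an adjusted p of 0.702. RHEB differed by 0.37 between TC/AVE at 11.88 and TC/CP at 11.52, with TC-71 at 11.64, and had an adjusted p of 1 in limma. TC/AVE and TC/CP lie in different array sets, which cannot be told apart from the lines in this contrast. No group held enough samples for a check of single outlying samples.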

How the results depend on the processing

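None of the 41 genes passed the adjusted threshold in limma in any comparison under any alternative that kept each line as 1 sample. Only 38 of them were tested with the mean of all probe sets and 39 with a filter at 6. Counting all 9 arrays as samples, which takes technical replicates for biological ones, called 2 of the 41 in TC/AEW, 6 in TC/AVE, 6 in TC/CP, 4 in the lines in common, 1 when TC/AEW was set against the antibody-selected lines and 4 in TC/AVE against TC/CP. Over all genes that setting called 545, 1871, 1013, 238, 288 and 1905 in the same order, against 0, 0, 0, 3, 0 and 0. For the lines in common, the count of 3 became 6 with the mean of all probe sets, 0 with no filter on dim probe sets, 6 with a filter at 6, 5 with arrays centred on their medians, 6 with a variance trend, 5 with the first array of each line alone and 0 with the array set as a block. It was 0 to 0 on leaving out any 1 TC-71 sample or line. For TC/AVE the count of 0 became 4 with the mean of all probe sets. The cause of these moves was not tested.

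The 37 differences followed for the genes given in full had 495 alternative values, of which 1 reversed. SGK1 in TC/AEW, at -0.62 pooled, was 0.063 against the TC-71 sample of its own array set. Another 6, all against the TC-71 sample of the line's own array set, moved by at least the SD of the TC-71 samples. Another 19 newly passed the threshold, all with the 9 arrays as samples. In the other settings only the sign and the threshold were compared, so a shrunken value could count as unchanged. With the mean of all probe sets, PIK3CD in TC/AEW went from 0.95 to 0.32. PIK3C3 in TC/AVE minus TC/CP went from -0.67 to -0.02. No paired analysis was possible because the numbers on the lines mark technical replicates averaged into 1 sample, while those on TC-71 name samples. The array sets, which tie each line to a TC-71 sample, served as the block instead. Single samples per line and levels near background limit these values.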
